A study of Mus musculus with 3 samples.

Results

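The Krüppel-like factors (KLFs) of adipocytes are taken here as 10 genes fixed by name, Klf2, Klf3, Klf4, Klf5, Klf6, Klf7, Klf9, Klf10, Klf13 and Klf15, of the 18193 genes measured. They were followed through every probe set that the platform annotation assigns to that 1 gene, which gave 34 probe sets. RNA came from 3 samples of 3T3-L1 adipocytes, a mouse fibroblast line differentiated into fat cells in culture, after 2 h with glucose oxidase, an enzyme that releases hydrogen peroxide as it oxidises glucose. The labels call the cells insulin resistant and give no genotype, strain or age. The treatment is shared by all 3, its dose is stated neither in the labels nor in the methods, and no control array was analysed. The values are therefore levels after treatment, with no fold change and no test of the treatment. 3T3-L1 is a single cell line, and whether the samples were separate cultures is not said, which leaves a technical spread possible. In such bulk RNA fewer cells of a type and less RNA per cell cannot be told apart.

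KLFs are transcription factors that bind GC-rich and CACCC sequences through zinc fingers at the carboxyl end of the protein, while their amino ends differ and recruit coactivators or corepressors. Several of them act in turn during fat cell differentiation, some upstream of the C/EBP factors and PPARγ and some against them. Others are rapidly transcribed after serum, growth factors, glucocorticoids or stress.

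The promoters of Klf3 and Klf15 are shown because the first holds the most of the boxes that KLFs themselves bind and the second the most E-boxes, the sequence bound by the CLOCK and BMAL1 proteins of the circadian clock. Both are RefSeq sequences of GRCm38.p6, written 5′ to 3′ over 250 bases before and 20 bases after the annotated start. Klf3 (chr5:64803271-64803540, plus strand) has GC boxes and CACCC boxes on either strand in capitals, 11 matches in all, some of which touch or overlap. Klf15 (chr6:90462326-90462595, plus strand) has its 3 E-boxes in capitals.
Klf3: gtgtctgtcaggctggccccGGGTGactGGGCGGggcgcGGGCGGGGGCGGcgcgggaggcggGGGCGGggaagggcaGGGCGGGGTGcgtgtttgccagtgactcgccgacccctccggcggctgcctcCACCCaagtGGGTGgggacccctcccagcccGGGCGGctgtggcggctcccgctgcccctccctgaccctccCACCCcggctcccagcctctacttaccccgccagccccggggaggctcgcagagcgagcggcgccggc
Klf15: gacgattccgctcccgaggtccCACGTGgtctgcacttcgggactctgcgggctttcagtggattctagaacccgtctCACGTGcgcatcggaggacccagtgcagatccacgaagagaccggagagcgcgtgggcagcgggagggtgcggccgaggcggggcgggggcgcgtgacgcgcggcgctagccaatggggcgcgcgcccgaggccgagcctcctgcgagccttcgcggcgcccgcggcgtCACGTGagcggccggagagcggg
Klf9, with no GC box and 1 CACCC box, and Klf6, with 1 GC box and no CACCC box, held the fewest of these boxes among the KLF windows.

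Windows of 300 bases, 250 before and 50 after the start, were held for 8 of the 10 genes, while Klf5 and Klf10 had none. A GC box (GGGCGG, both strands) was found in 7 of the 8 windows, against 35.7% of the 32851 windows of all genes. A CACCC box (CACCC, both strands, free to overlap a GC box) was found in 6 of 8, against 57.5% of all windows. The E-box CACGTG, which reads the same on both strands, was present in 3 of 8 windows (Klf4, Klf6 and Klf15), against 7.15% of all, and the 3 copies of Klf15 began at positions -228, -172 and -3 from the start, the last running across it. The CCAAT box (CCAAT, both strands) was in 4 of 8 windows against 37.4%, with 4 copies in Klf6 and 3 in Klf9. The core of the antioxidant response element (TGACNNNGC, both strands), the sequence bound by NRF2 with small MAF proteins, was in 3 of 8 (Klf3, Klf6 and Klf15) against 12.4%. The TATA box TATAAA, the AP-1 site TGACTCA and the cAMP response element TGACGTCA, each searched on both strands, were in none of the 8, against 13.6%, 5.20% and 1.79% of all windows. Only these exact words were searched, and the windows of Klf2 and Klf4 hold the near form TATAAG. The windows of the 8 genes were 58.3% to 76.7% G and C, with a median of 70.7%, against a median of 52.7% over all windows, and short G- and C-rich words turn up more often in such sequence. These matches are a description of letters, and nothing in the arrays measures binding at them.

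**Figure D1:**
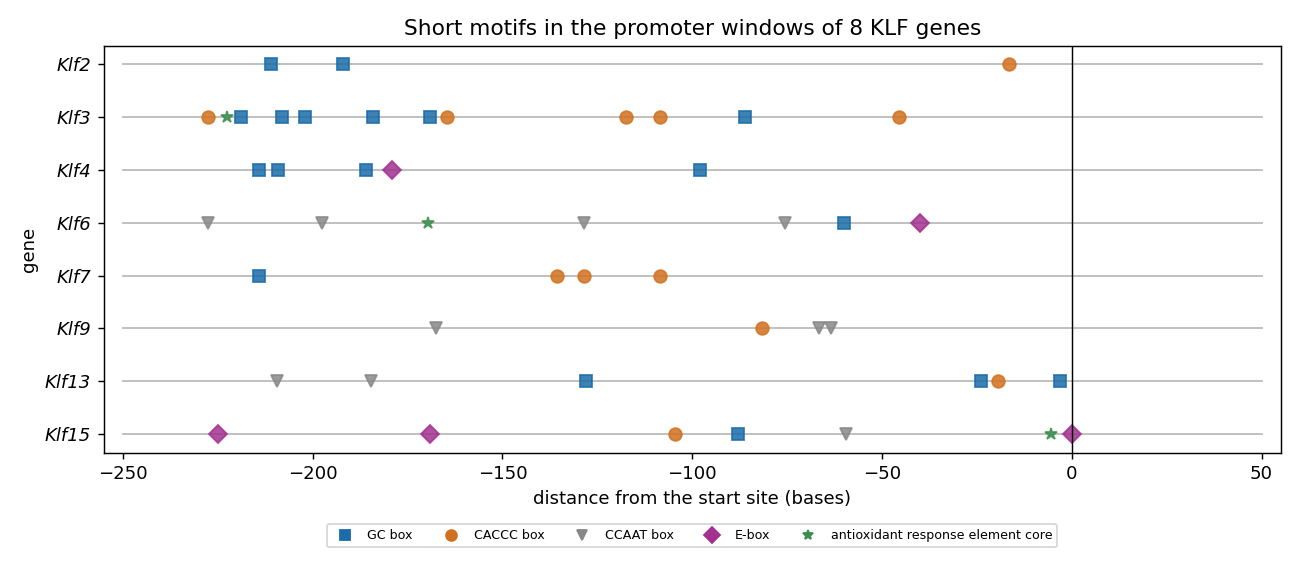
Motif matches (symbols by motif) in the promoter windows of the 8 KLF genes with a window (rows), by distance in bases from the annotated start site (x axis, vertical line at the start). Klf3 carries 6 GC boxes and 5 CACCC boxes, and Klf15 carries 3 E-boxes, 1 of them across the start.

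The arrays were alike, with median intensities of 127.6, 126.9 and 126.9 in replicates 1, 2 and 3 and Pearson's r of 0.997 to 0.998 across the probe sets above background, which are not independent replicates. The 4 measured adipocyte markers (Adipoq, Fabp4, Cidec and Lipe) were above background, at log2 intensities of 13.11 to 14.49, and so were all 4 preadipocyte and fibroblast markers (Dlk1, Pdgfra, Col1a2 and Thy1), at 10.50 to 13.81, whereas the tissue label names preadipocytes. The macrophage markers Adgre1, Cd68 and Ptprc and the endothelial markers Pecam1, Cdh5 and Tek were not above background, but Csf1r (8.70) and Kdr (8.29) were. Some KLFs, such as Klf2, are also well known from endothelial cells and macrophages. However, 3T3-L1 is a single cell line, and why Csf1r and Kdr passed was not tested. As a measure of RNA integrity, the actin control probe sets gave 3' to 5' signal ratios of 1.70, 1.58 and 1.54 by replicate, and those of Gapdh gave 1.11, 1.14 and 1.10.

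Background was set at a log2 intensity of 7.50, the 95th percentile of the mean levels of 83 olfactory, vomeronasal and bitter taste receptor probe sets. A gene was above background where at least 1 of its probe sets exceeded that level in all 3 arrays. All 10 KLFs passed this rule, against 55.7% of all genes (10135 of 18193). A gene with more probe sets has more chances to pass, and the 10 were chosen with earlier results of these data known. Of the 34 KLF probe sets 27 passed, against 46.5% of all probe sets with 1 gene. For Klf2, Klf4, Klf6, Klf10 and Klf15 every probe set passed, although Klf2, Klf10 and Klf15 have only 1 each. Levels below are those of the probe set with the highest mean, and since probes differ in how well they hybridise, heights of different genes do not order their transcripts.

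**Figure D2:**
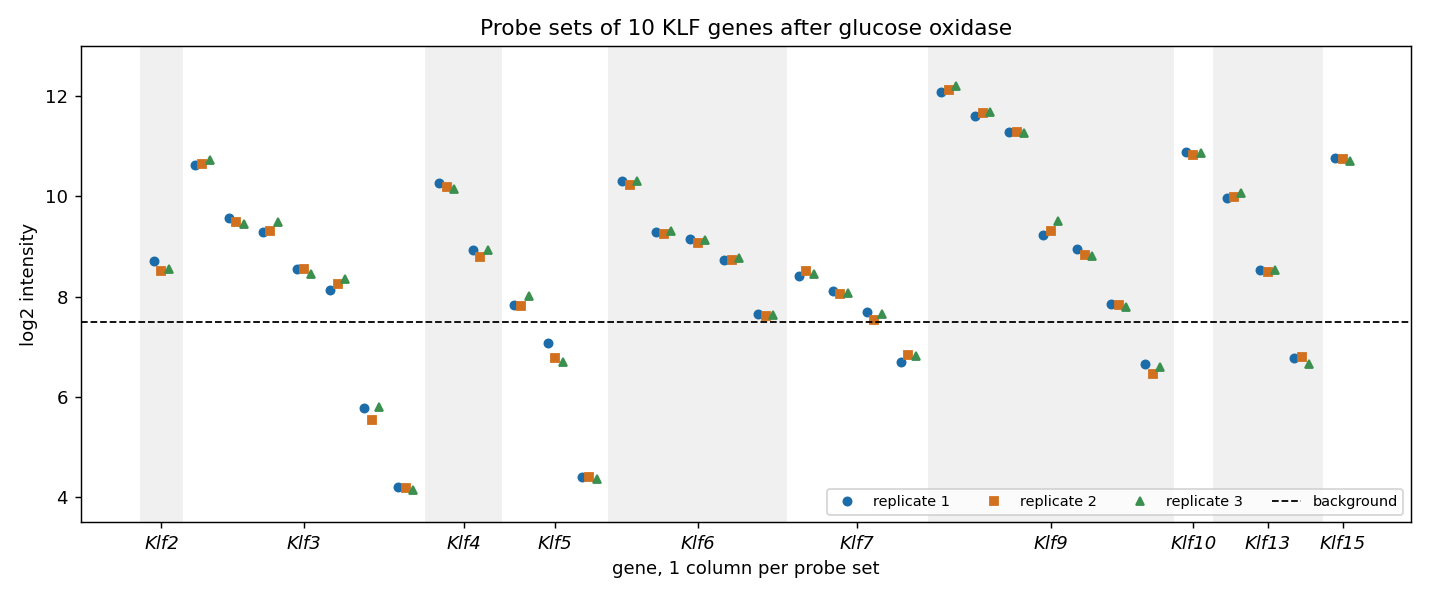
Log2 intensity (y axis) of every probe set (1 column each) of the 10 KLF genes (x axis) in the 3 glucose oxidase arrays, with 1 symbol per replicate and background as a dashed line at 7.50. The 7 probe sets with an array under the line belong to Klf3, Klf5, Klf7, Klf9 and Klf13, and heights of different probe sets are not comparable.

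Klf4, Klf5, Klf6, Klf9, Klf13 and Klf15 are the KLFs known to favour fat cell formation. KLF4 acts early, together with Krox20 (Egr2), on the gene for C/EBPβ. Klf4 was at 10.26, 10.19 and 10.15 in replicates 1, 2 and 3, a mean of 10.20 ± 0.06 (SD, n = 3), and its other probe set was at 8.93, 8.80 and 8.94. Both were well clear of background, but the array that read highest was replicate 1 in the first and replicate 3 in the second.
KLF5 is induced by C/EBPβ and C/EBPδ and acts on the gene for PPARγ. Klf5 passed the background rule through 1 of its 3 probe sets. That one, 1451021_a_at, read 7.83, 7.81 and 8.01, a mean of 7.88 ± 0.11 (SD, n = 3), while 1451739_at was at 7.08, 6.77 and 6.69 and 1430255_at at 4.37 to 4.41. Replicate 3 was the highest of the first and the lowest of the second, and the gene was not above background with the 99th percentile, with keratin-associated protein and defensin genes as background, or with the median of its probe sets.
KLF6 represses Dlk1, which encodes the preadipocyte protein PREF-1. Klf6 was at 10.31, 10.23 and 10.31 in its highest one, a mean of 10.28 ± 0.05 (SD, n = 3). All 5 of its probe sets were above background, with means of 7.63 to 10.28, and replicate 2 was the lowest array in each of them, though by a small margin, with ranges of 0.05 to 0.09. Of the 103 genes with 5 probe sets above background, 14.6% had the same array lowest in all 5, and this pattern was chosen after the values were seen. By the highest probe set, 4 of the 10 KLFs (Klf2, Klf5, Klf6 and Klf10) were lowest in replicate 2, against 24.9% of all genes above background. The 4 preadipocyte and fibroblast markers were also all lowest in that array, with Pdgfra at 10.91, 10.63 and 10.92, Dlk1 at 13.33, 13.13 and 13.26, Thy1 at 10.59, 10.44 and 10.49 and Col1a2 at 13.84, 13.77 and 13.82, and their part in the KLF values was not tested.

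KLF9 acts in mid-differentiation on the gene for PPARγ and is induced by glucocorticoids and, in other cells, by oxidants through NRF2. Klf9 was at 12.07, 12.13 and 12.20 in replicates 1, 2 and 3, a mean of 12.13 ± 0.06 (SD, n = 3). The arrays lay within 0.12, and 12.7% of the 338 genes above background with a mean within 0.25 of this one had a wider range. Of its 7 probe sets 6 were above background, with means of 7.83 to 12.13, and 1452723_at was not, at 6.45 to 6.66. Among the 6, replicate 3 was the highest array in 3 and the lowest in the other 3. The widest was 1422264_s_at at 9.22, 9.31 and 9.51, a range of 0.29, and 1436763_a_at went the other way at 8.94, 8.84 and 8.81. The ending _s_at marks a probe set that can match transcripts of more than 1 gene.
KLF13 is known from pig preadipocytes as an activator of the PPARγ gene. Klf13 was at 9.96, 9.98 and 10.06, with an SD of 0.05 (n = 3), and 1432543_a_at was at 8.54, 8.49 and 8.53. The third probe set, 1456030_at, was below background at 6.65 to 6.79.
KLF15 rises as 3T3-L1 cells differentiate and activates Slc2a4, the gene for the insulin-responsive glucose transporter GLUT4. Klf15 was at 10.76, 10.75 and 10.71, a mean of 10.74 ± 0.02 (SD, n = 3). This was the narrowest range of the 10 KLFs at 0.05, and 79.3% of the 803 genes above background within 0.25 of its level varied more.

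Klf2, Klf3 and Klf7 are the KLFs known to hold back fat cell formation. KLF2 represses the gene for PPARγ in preadipocytes. Klf2 was at 8.71, 8.50 and 8.56 in replicates 1, 2 and 3, a mean of 8.59 ± 0.11 (SD, n = 3). That is its only probe set, at a level near those of Csf1r (8.70) and Kdr (8.29). Passing the background rule is no proof of a transcript. Replicate 1 stood above the other two, the range of 0.20 was the widest among the 10 genes, and 9.98% of the 1283 genes above background within 0.25 of its level varied more.
KLF3 binds the corepressor CtBP and represses the gene for C/EBPα. Klf3 was at 10.63, 10.64 and 10.73 in its highest probe set, 1454666_at, a mean of 10.67 ± 0.05 (SD, n = 3). Of its 7 probe sets 5 were above background, with means of 8.25 to 10.67, and the other two, 1442920_at and 1458487_at, were far below it at means of 4.18 and 5.70. Replicate 3 was the highest array in 3 of the 5 and the lowest in 2. The 2 orders are seen in 1421604_a_at at 9.28, 9.30 and 9.49 and in 1431630_a_at at 9.57, 9.49 and 9.45.
KLF7 inhibits differentiation when overexpressed in human preadipocytes. Klf7 was at 8.41, 8.50 and 8.45, a mean of 8.46 ± 0.04 (SD, n = 3), and was the only one of the 10 with its highest value in replicate 2. Of its other probe sets, 1449439_at and 1419355_at were above background at means of 8.08 and 7.62, and 1419356_at was not, at 6.78.
KLF10, also called TIEG1, is induced early by TGF-β and represses transcription through the corepressor SIN3A. Klf10 was at 10.89, 10.83 and 10.86 in replicates 1, 2 and 3, a mean of 10.86 ± 0.03 (SD, n = 3), in its only probe set. Its range of 0.06 was narrower than that of 64.6% of the 749 genes above background near its level.

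The spread between arrays of the KLFs was close to that of other genes. The SD ran between 0.02 and 0.11 on the log2 scale, with a median of 0.052, against 0.048 over the genes above background. The median range between the lowest and highest array was 0.097, against 0.093 for those genes, and 6 of the 10 KLFs were above that value. None had a range over 0.25 (1.19-fold), against 3.02% of all genes above background. Klf2 was the only one over 0.2, a limit for which the share of all genes is not given here. Of the 27 KLF probe sets above background 1 was over 0.25, the Klf9 probe set 1422264_s_at, against 4.53% of all such probe sets.

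**Figure D3:**
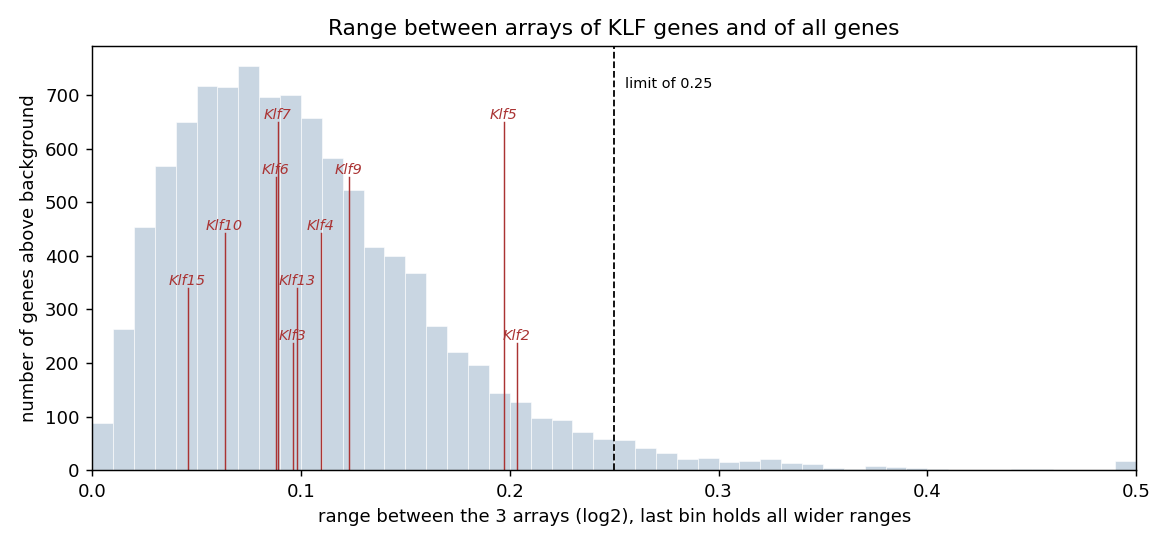
Range between the 3 arrays on the log2 scale (x axis) for the genes above background (histogram, y axis number of genes) and for the 10 KLFs (red lines, whose heights carry no value), with the limit of 0.25 as a dashed line. All 10 KLFs lie below the limit, with Klf15 lowest at 0.05 and Klf2 highest at 0.20.

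By the highest probe set of each gene, no array was highest for all of the KLFs. The highest value was in replicate 1 for 4 genes (Klf2, Klf4, Klf10 and Klf15), in replicate 2 for 1 (Klf7) and in replicate 3 for 5 (Klf3, Klf5, Klf6, Klf9 and Klf13). Over all genes above background the shares were 23.9%, 35.5% and 40.5%. Some KLF placements were near ties, as for Klf6 (10.31 in replicates 1 and 3) and Klf15 (10.76 and 10.75 in replicates 1 and 2). With the median over the probe sets of each gene in place of the highest one, replicate 1 was highest for 8 of the 9 KLFs above background by that measure, against 22.7% of 8230 genes, and Klf9 was highest in replicate 3. Klf5, which was not above background there, was also highest in replicate 1.

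**Figure D4:**
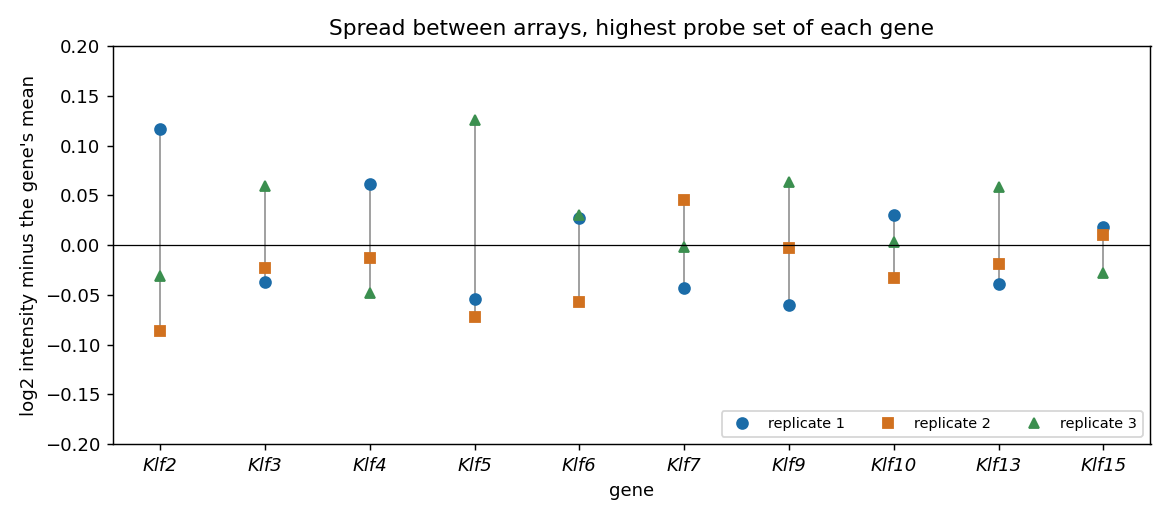
Difference of each array from the gene's mean on the log2 scale (y axis) for the highest probe set of the 10 KLFs (x axis), with 1 symbol per replicate and a grey line for the range. Klf2 and Klf5 spread most, at ranges of 0.20, and no replicate is highest throughout.

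Probe sets of the same KLF often placed the arrays in a different order. Among the 40 pairs of probe sets above background that belong to the same KLF, 13 (32.5%) had the same array highest, against 46.3% of 9251 pairs over all genes. For the lowest array it was 21 of 40, of which Klf6 gave 10, against 46.3% of the 9251 pairs. The pairs of a gene share probe sets and are not independent, and 35 of the 40 come from Klf3, Klf6 and Klf9.

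**Figure D5:**
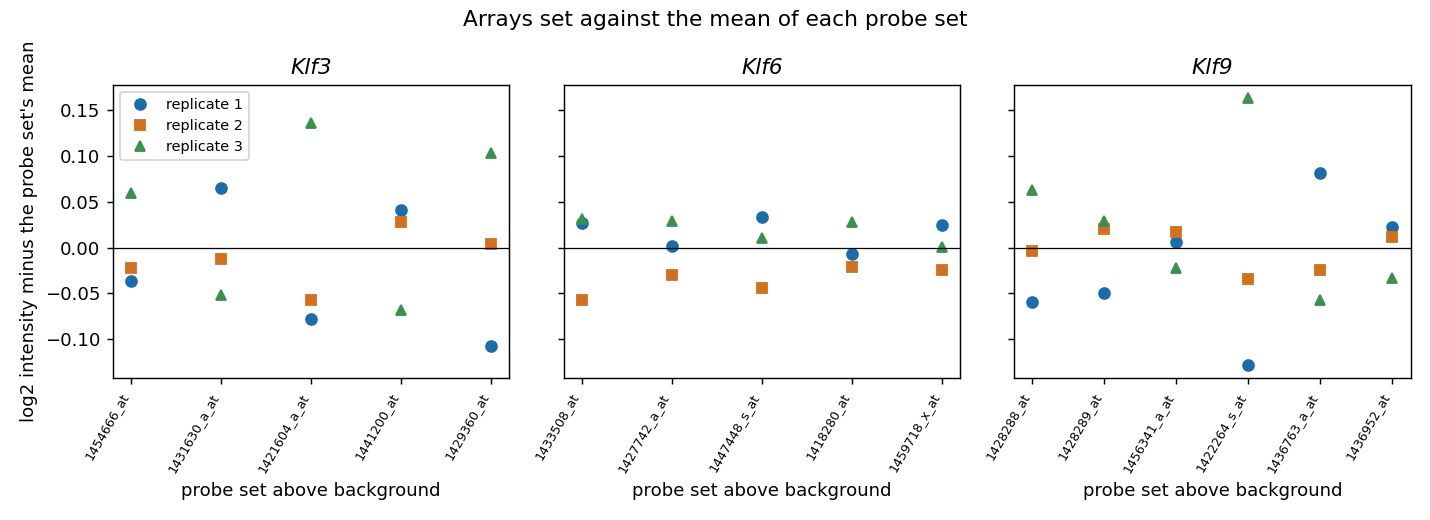
Difference of each array from the probe set's mean on the log2 scale (y axis) for the probe sets of Klf3, Klf6 and Klf9 above background (x axis, highest mean at left), with 1 symbol per replicate. Replicate 2 is lowest in all 5 Klf6 probe sets, and replicate 3 is highest in some and lowest in others for Klf3 and Klf9.

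Of the 13 other measured genes of the family, 8 were above background, against 55.7% of all genes. Among the KLFs, Klf1, Klf11, Klf14 and Klf16 were above background, while Klf12 and Klf17 were not, and Klf8 was not analysed here. Klf12 read 7.53, 7.54 and 7.50, just under the limit in replicate 3 only. Klf16 was at 10.01, 10.20 and 10.15 and Klf11 at 8.76, 8.93 and 8.91. Klf1, the red cell KLF, read 7.88, 7.67 and 7.52, just over the limit, and the rule by itself is no proof of a transcript. The related factor Sp1 was at 10.64, 10.66 and 10.78, Sp3 at 8.57, 8.46 and 8.72 and Sp7, a bone cell factor, at 8.17, 8.32 and 8.33. Sp6 passed too, at 7.80, 7.67 and 7.68, whereas Sp4, Sp5 and Sp8 were not above background. Klf1 and Sp3 had ranges over 0.25, at 0.36 and 0.26, against 3.02% of all genes above background. Klf17 and Sp4 did too, at 0.26 and 0.27, but were not above background and are not covered by that share.

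Of 15 genes with a reported link to a KLF, 14 were above background, against 55.7% of all genes. Pparg was at 12.80, 12.75 and 12.67 (mean 12.74), Cebpa at 12.54, 12.60 and 12.56, Cebpb at 12.55, 12.46 and 12.55 and Cebpd at 11.39, 11.32 and 11.26. These are the factors downstream or upstream of the adipogenic KLFs, with ranges of 0.06 to 0.13. Dlk1, the target of KLF6, was at 13.33, 13.13 and 13.26, lowest in replicate 2 like the other preadipocyte and fibroblast markers. Slc2a4, the target of KLF15, was at 11.16, 11.28 and 11.25, and Egr2, the partner of KLF4, at 8.63, 8.55 and 8.68. Bcat2 and Prodh, amino acid catabolic genes linked to KLF15, were at means of 10.60 and 8.82, while Acss1 was not above background at 5.94. Txnrd2, which encodes mitochondrial thioredoxin reductase and is repressed by KLF9, was at 8.73, 8.76 and 8.71, and Nfe2l2, which encodes NRF2, at 11.53, 11.59 and 11.53. The cell cycle genes Cdkn1a and Ccnd1 were at means of 12.20 and 10.28, and Smad7, an inhibitor of TGF-β signalling, at 8.79.

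Against 55.7% of all genes, all 10 coregulator genes were above background. The widest ranges were those of the acetyltransferase gene Ep300 (9.15, 9.05 and 9.28) and of Ctbp2 (9.67, 9.55 and 9.68), which encodes a corepressor of the CtBP kind, followed by Kat2b (mean 11.58) and Hdac3 (mean 10.13). Of 6 genes for ubiquitin ligase components that act on KLF proteins, 5 were above background, against 55.7% of all genes. Those 5 included Wwp1 (mean 8.86), Smurf1 (9.62) and Btrc (9.38). The exception, Fbxw7, was at 7.49, 7.66 and 7.65 and so over the limit in 2 of the 3 arrays. Of 10 genes for upstream signalling 9 were above background, against 55.7% of all genes. Those 9 included Mapk7 (9.15), which encodes the kinase ERK5, Mef2a (9.86), Smad2 (10.08) and Smad3 (9.85). Mef2c was not above background, at 6.75. None of the 57 different genes of the KLF-linked, coregulator, ligase, upstream, glucocorticoid and clock lists had a range over 0.25. Of the 57, 53 were above background, and over all genes above background 3.02% had such a range.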

How the data were processed

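The labels and the study's methods describe 3 glucose oxidase samples of 3T3-L1 adipocytes, measured on the mouse4302 Affymetrix array. The deposited intensity values were background-corrected and normalized by the authors with RMA (affyPLM, no version stated). They are on a linear scale, whereas RMA usually gives log2 values, so log2 was taken of each. Any later scaling or centring stays unknown, as does the set of arrays normalized together. Precision is limited by the number of arrays.

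The platform annotation gave the gene names of the 45101 probe sets, of which 34945 named 1 gene and 932 several, and control probe sets of the array were left out. For all 34 KLF probe sets the Entrez identifier matched the symbol in RefSeq genes of GRCm38.p6. The members and lists were chosen with earlier results of these data known. The text names all 10 KLFs, every gene of the KLF-linked list, and in the other lists the genes not above background and at most 4 with the widest range. Klf14 and Sp6 fall outside this rule and were named after their values were seen. Alternatives were other background percentiles and genes, the median of probe sets, no _s_at or _x_at probe sets, another range limit, array centring and leaving out each array. With 1 group, no test was made. The calls were also tried on simulated arrays with less noise than these arrays, in which all probe sets of a gene shifted alike. That trial checks the calculation only, and not how reliable the calls are in these data. Protein sequences were not used here. Python 3.11.15, numpy 2.4.6, pandas 2.3.3 and matplotlib 3.10.9 were used.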

Additional observations from a re-analysis of the deposited data

How the results depend on the processing

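No paired analysis was possible because only 1 group was sampled. All 10 KLFs stayed above background without _s_at and _x_at probe sets. They also did on leaving out each array in turn and with the 90th percentile, but neither setting could have removed a gene. Leaving out an array kept the same background level, and the 90th percentile lowers it. With the 99th percentile, with keratin-associated protein and defensin genes as background and with the median of probe sets, 9 passed, Klf5 being lost. Among the other KLF and SP genes, 6 passed with the 99th percentile and 6 with keratin-associated protein and defensin genes as background. For the same genes the count was 7 with the median of probe sets, and 9 with the 90th percentile and without replicate 3. With the median of probe sets, 2 KLFs (Klf5 and Klf9) had a range over 0.25. Klf5 was not above background by that measure, so 1 of the 9 KLFs that were was over it, against 3.26% of such genes. Among all 10, the highest array was replicate 1 for 9, replicate 2 for 0 and replicate 3 for 1. With a limit of 0.2, 1 KLF was over it. On centring each array, 2 KLFs were highest in replicate 2. For these settings and for the other background levels, shares over all genes are not given here, so the counts are not set against other genes. The level moved by more than 1 SD for 7 KLFs with the median of probe sets, by over 1 log2 unit for 5 of them, and for 0 without _s_at and _x_at probe sets. Leaving out 1 of 3 arrays cannot move a mean by more than 1 SD, and centring keeps it. Pairs of probe sets with the same array highest were 35.7% without _s_at and _x_at probe sets and 32.3% over all probe sets, both chosen after seeing the data. Signal near background limits Klf2, Klf5, Klf7 and the lower probe sets.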

Other observations

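Klf9, Klf10 and Klf15 are known as outputs of the circadian clock and Klf9 and Klf15 as glucocorticoid targets, so genes of both systems were read beside them. Against 55.7% of all genes, 9 of 10 clock genes were above background. The widest range among these was that of Clock at 9.11, 9.24 and 9.35 in replicates 1, 2 and 3, followed by Cry2 (mean 10.39) and Dbp (11.20), and Cry1 was not above background at 7.38. All 7 glucocorticoid-responsive or receptor genes were above background, against 55.7% of all genes. Those 7 included Nr3c1, which encodes the receptor, at 11.12, 11.03 and 11.07 and Tsc22d3 at 10.01, 10.04 and 10.14. Fkbp5 was at 10.24, 10.33 and 10.27 and Zbtb16 at a mean of 9.38. Dexamethasone is part of the usual differentiation mix of 3T3-L1 cells, and its part in these levels was not tested.

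Klf14, an imprinted gene known to act on metabolic gene expression in fat, was above background at 8.63, 8.61 and 8.55. This rests on its only probe set, at a level near those of the macrophage marker Csf1r (8.70) and the endothelial marker Kdr (8.29). The background rule by itself is no proof of a transcript.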
